A study of Mus musculus with 18 samples.

Results

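Hmgcs1, Idi1, Fdps, Fdft1, Sqle, Lss and Cyp51 encode 7 enzymes of cholesterol synthesis and are known targets of SREBP2, the transcription factor that answers to membrane sterol. They were chosen by name, with earlier results of these data known, from a table of 55450 mouse gene IDs. Each matched 1 ID, and all 7 were among the 17912 genes that passed the filter on low counts. Polyadenylated RNA was measured in C2C12 cells, an established mouse line whose myoblasts fuse to myotubes in poor medium, in a study of how the dosage of the Dlk1-Dio3 noncoding RNA cluster bears on muscle differentiation. Of the 3 lines, control was a sorted, uncloned population that had received only the empty Cas9 vector pX458. Clone 2-4, labelled Dlk1-Dio3 overexpressor, and clone 2-7, labelled Dlk1-Dio3 knockout, were each grown from 1 cell after transfection with a pair of Cas9 guide constructs against the proximal promoter of Meg3. All 3 lines had been transfected and sorted for EGFP. Each line was sampled as myoblasts, in medium with 10% fetal bovine serum, and as myotubes on day 3 in medium with 2% horse serum, with replicates A, B and C per group. The serum amount, the serum species, confluence and differentiation changed together, so their effects cannot be told apart. Each genotype was 1 line, so genotype and clone cannot be told apart either. Whether replicates were separate cultures was not stated, and the p-values measure only the spread between these libraries.

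Cholesterol is built from acetyl-CoA through mevalonate, isoprenoids, squalene and lanosterol. When endoplasmic reticulum cholesterol is low, SCAP carries SREBP2 to the Golgi, where 2 proteases release its active part, which then induces the enzymes of the whole route. When cholesterol is ample, INSIG proteins hold SCAP and SREBP2 back. Serum brings cholesterol as lipoproteins, and dividing cells need sterol for new membrane. RNA counts measure neither the cleavage of SREBP2 nor the sterol content of the cells.

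Library totals ran from 41544358 to 79140702 counts. Levels are given as CPM, the usual depth-scaled counts, here with TMM factors, and 3 counts, the most that a count of 0 allows, corresponded to between 0.0375 and 0.0693 CPM. Such limits cover counting error only. Meg3, the targeted gene, had 0 counts in all 12 libraries of the control and knockout lines and 5222 to 7763 in each overexpressor library, so it did not separate the line labelled knockout from control. The summed CPM of 4 myoblast markers (Myod1, Myf5, Des and Cdh15) was 1357 to 1507 in control, 2729 to 3303 in overexpressor and 3423 to 3897 in knockout myoblasts. It was higher in the respective myotubes, at 2579 to 2704, 5598 to 6788 and 7840 to 10424, so this sum did not mark the myoblast stage. Des held most of it, with means of 913, 2102 and 2820 CPM in the respective myoblasts. Mean Myf5 was 25.5, 73.0 and 23.9 CPM there. The summed CPM of 5 myotube markers (Myog, Myh3, Ckm, Acta1 and Mymk) was 232 to 355 in control, 405 to 670.2 in overexpressor and 8611 to 10997 in knockout myoblasts, against 12608 to 13145, 18059 to 20143 and 27084 to 32354 in the respective myotubes. Markers of other fates were near 0: the 4 adipocyte markers summed to at most 0.455 CPM in any library, the 3 osteoblast markers to at most 0.518 and the 2 chondrocyte markers to at most 1.38. Cidec had 0 counts in all groups but overexpressor myotubes, and Ibsp in all but control myotubes.

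The first comparison asked how the 7 genes answered to differentiation medium in the control line. All 7 fell between myoblasts and myotubes, and for each of them every myotube library was below every myoblast library. The share of all genes that separated in this way is not given here, so the separation only describes these libraries. Of all genes tested, 28.8% fell and 33.9% rose at the threshold used throughout, an adjusted p under 0.05 in edgeR's quasi-likelihood test with Benjamini-Hochberg adjustment over all genes. The median log2 fold change of the 7 genes was -0.87, against 0.07 over all genes. The count of 7 was the same in each of the 7 refits that changed the scaling, the filter, the tool, the design or the pseudogene counts, and in each of the 6 that left out 1 library.

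Hmgcs1 (chromosome 13, 119690379 to 119708260, plus strand of GRCm38) encodes the cytosolic synthase that makes HMG-CoA, a precursor of mevalonate. Its level was 311, 316 and 329 CPM in control myoblasts and 135, 139.6 and 164 CPM in control myotubes. It fell 2.18-fold (log2 fold change -1.13, SE 0.16, adjusted p = 1.42e-05). Idi1 (chromosome 13, 8885501 to 8892451, plus strand), the isomerase that converts isopentenyl into dimethylallyl diphosphate, was the least abundant, at 8.61, 5.94 and 5.86 CPM in myoblasts and 2.33, 2.08 and 3.34 CPM in myotubes. Its fall of 2.62-fold had the widest error of the 7 (log2 fold change -1.39, SE 0.32, adjusted p = 0.00138). Fdps (chromosome 3, 89093588 to 89101959, minus strand), which makes farnesyl diphosphate, went from 46.2, 49.7 and 45.7 CPM to 22.5, 29.3 and 25.5 CPM. This was a fall of 1.83-fold (log2 fold change -0.87, SE 0.10, adjusted p = 3.7e-07).

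The next 2 enzymes commit farnesyl diphosphate to sterols. Fdft1 (chromosome 14, 63145150 to 63179578, minus strand), squalene synthase, was at 140.0, 151 and 150.2 CPM in control myoblasts and 113, 129.8 and 117 CPM in control myotubes. It changed least of the 7, by 1.23-fold (log2 fold change -0.30, SE 0.09, adjusted p = 0.00753). Sqle (chromosome 15, 59315077 to 59331192, plus strand), squalene epoxidase, an oxygen-dependent and rate-limiting step, went from 264, 262 and 277 CPM to 143, 165 and 147 CPM. It fell 1.76-fold (log2 fold change -0.82, SE 0.07, adjusted p = 4.15e-09).

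Lss (chromosome 10, 76531588 to 76557138, plus strand), which folds the epoxide into lanosterol, was at 105, 110.1 and 106 CPM and then 42.3, 48.1 and 46.3 CPM, a fall of 2.35-fold (log2 fold change -1.23, SE 0.07, adjusted p = 3.26e-11). Cyp51 (chromosome 5, 4081145 to 4104746, minus strand), the lanosterol demethylase, went from 264, 260.4 and 263 CPM to 132, 163 and 163 CPM. It fell 1.72-fold (log2 fold change -0.78, SE 0.08, adjusted p = 1.49e-07). Per kilobase of annotated exon, the level in control myoblasts was 69.4 CPM for Hmgcs1, 59.5 for Cyp51, 48.2 for Sqle, 34.8 for Fdft1, 11.2 for Fdps, 9.92 for Lss and 1.94 for Idi1.

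**Figure D1:**
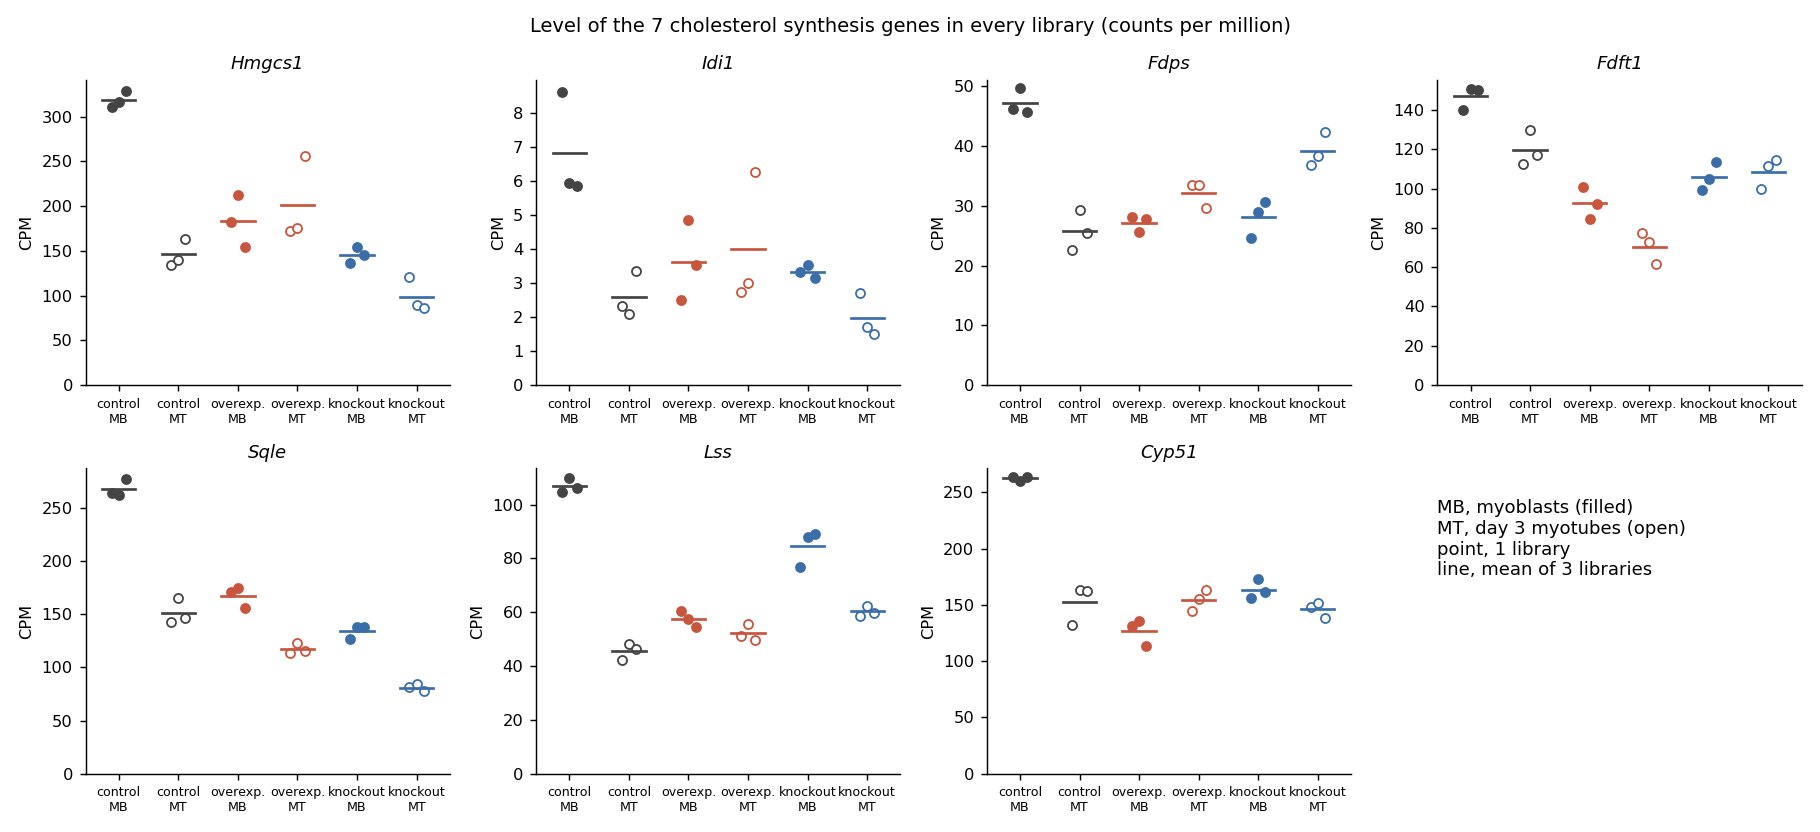
Level of each gene in CPM (linear axes from 0) in 3 libraries per group, with myoblasts (MB) filled, day 3 myotubes (MT) open and the mean as a line. Control myoblasts are the highest group for all 7 genes, and the 3 control myotube libraries lie below them in every panel.

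Fdps, Idi1 and Fdft1 share sequence with near-identical copies elsewhere in the genome, between which the counting could split reads. Of the 50-base words of the longest coding transcript of Fdps, 86.4% also occur in other annotated genes. This share was 30.5% for Idi1, 30.7% for Fdft1 and at most 13.6% for Hmgcs1, Lss and Cyp51. Besides processed pseudogenes, these other genes include some that overlap the gene itself, such as Gm43738 for Fdps and Ctsb for Fdft1. Gm43738, annotated as protein-coding on the same strand, overlaps Fdps by 1124 exonic bases and held 1 count over the 18 libraries. Its effect on the counts of Fdps was not tested. Sqle shared none. The pseudogenes Gm3571 and Gm5873 held 34184 and 18746 counts over the 18 libraries, against 32788 on Fdps itself, and Gm13502 held 5407, against 3662 on Idi1. All 3 fell in control: Gm3571 (log2 fold change -0.98, adjusted p = 6.03e-07), Gm5873 (log2 fold change -0.97, adjusted p = 9.78e-07) and Gm13502 (log2 fold change -1.36, adjusted p = 0.000955). Fdps held between 33.2% and 40.6% of the counts of itself plus its copies in any library, Idi1 between 36.1% and 50.5%, and Fdft1 between 91.4% and 93.7%.

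With the copies added, an alternative chosen after these counts were seen, Fdps was at 128, 134 and 129.9 CPM in control myoblasts and 61.7, 77.4 and 65.0 CPM in control myotubes (log2 fold change -0.94, SE 0.10, adjusted p = 1.09e-07). Idi1 with its copies was at 20.4, 14.7 and 15.4 CPM and 5.29, 5.77 and 8.44 CPM (log2 fold change -1.37, SE 0.31, adjusted p = 0.00114). Both kept the direction and the call in control, and their absolute levels remain uncertain. Fdft1 overlaps Ctsb, a gene on the opposite strand, by 774 exonic bases, and whether counting used strand was not stated. Ctsb held 675597 counts over the 18 libraries, against 103334 on Fdft1, and rose in control (log2 fold change 0.90, adjusted p = 6.14e-09), and its part in the counts of Fdft1 was not tested. Cyp51 overlaps Akap9 on the opposite strand by 166 exonic bases.

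**Figure D2:**
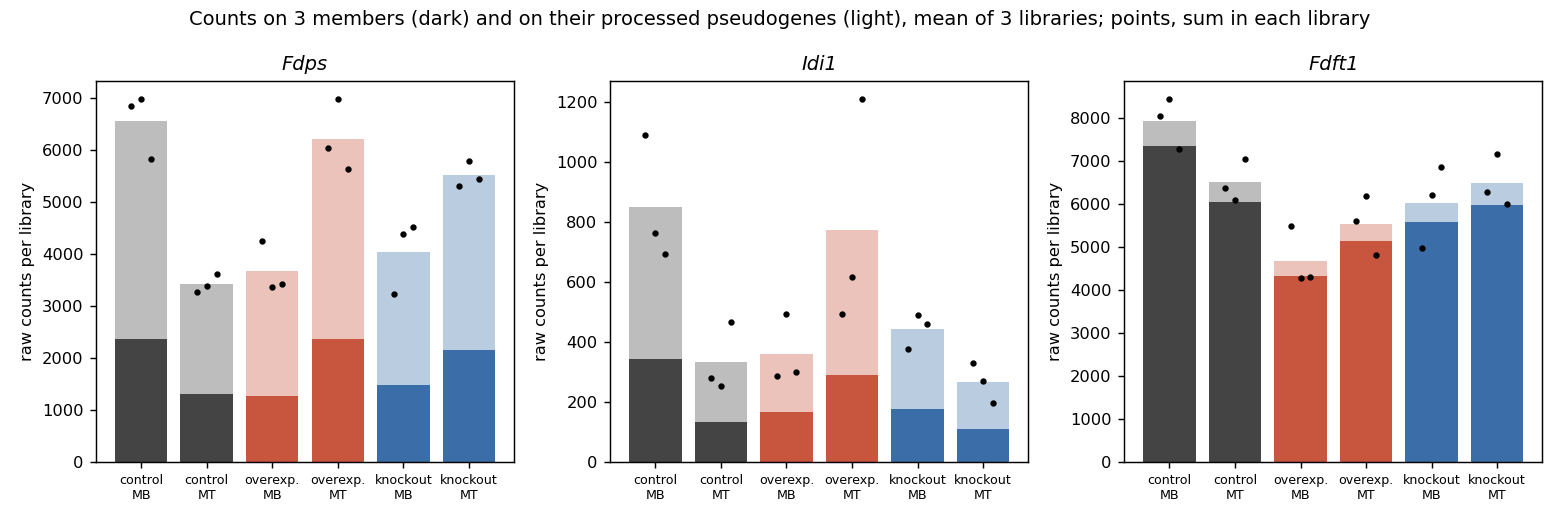
Raw counts on Fdps, Idi1 and Fdft1 (dark bars, mean of 3 libraries) and on their processed pseudogenes (light bars), with points for the sum in each library and axes from 0. Most counts of the Fdps sequence lie on the copies in all 6 groups, and the copies of Fdft1 hold under 8.6% in every library.

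Because the 7 genes fell together in control, the windows before their start sites are shown for the 4 genes that the RefSeq table of promoters holds (GRCm38.p6), each 250 bases long and ending at the base before the RefSeq start, which need not be the GENCODE start given above, 5′ to 3′ on the strand of the gene. Fdps, Fdft1 and Sqle had no entry. Capitals mark matches on either strand to TCACNCCAC, a form of the sterol regulatory element that SREBP binds, and to CCAAT, the box of NF-Y, a known partner of SREBP. On the strand opposite to the box, CCAAT reads as ATTGG. The windows are chr13:119690101-119690350 on the plus strand for Hmgcs1, chr13:8885356-8885605 on the plus strand for Idi1, chr10:76531355-76531604 on the plus strand for Lss and chr5:4104698-4104947 on the minus strand for Cyp51.
Hmgcs1: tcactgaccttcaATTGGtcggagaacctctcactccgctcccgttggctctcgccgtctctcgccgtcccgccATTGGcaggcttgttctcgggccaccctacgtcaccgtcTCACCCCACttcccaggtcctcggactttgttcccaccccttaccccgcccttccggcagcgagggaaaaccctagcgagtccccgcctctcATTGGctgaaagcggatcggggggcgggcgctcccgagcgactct
Idi1: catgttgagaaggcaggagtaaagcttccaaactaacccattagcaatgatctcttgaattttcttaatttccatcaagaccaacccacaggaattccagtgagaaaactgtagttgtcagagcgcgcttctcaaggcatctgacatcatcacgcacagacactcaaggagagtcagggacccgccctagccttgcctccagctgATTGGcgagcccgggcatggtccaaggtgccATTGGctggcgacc
Lss: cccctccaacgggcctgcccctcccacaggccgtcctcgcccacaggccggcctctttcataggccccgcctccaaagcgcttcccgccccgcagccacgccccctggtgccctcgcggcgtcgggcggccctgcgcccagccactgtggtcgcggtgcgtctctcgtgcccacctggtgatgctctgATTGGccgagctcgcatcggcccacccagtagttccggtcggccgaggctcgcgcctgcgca
Cyp51: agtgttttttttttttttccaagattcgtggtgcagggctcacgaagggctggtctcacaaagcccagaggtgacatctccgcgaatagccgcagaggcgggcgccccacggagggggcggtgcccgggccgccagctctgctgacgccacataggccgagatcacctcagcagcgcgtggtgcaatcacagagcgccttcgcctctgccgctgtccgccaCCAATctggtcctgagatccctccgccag

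The Hmgcs1 window held TCACCCCAC, starting 137 bases before the start site, with ATTGG at 237, 176 and 45 bases before it. TCACNCCAC occurred in 1.05% of the 32851 windows in the table. Idi1 had ATTGG at 45 and 14 bases before the start and Lss at 62 bases. Cyp51 had CCAAT at 29 bases before it, and this box on either strand occurred in 33.8% of all windows. The GC box GGGCGG on either strand, bound by Sp1, was found in all 4 windows and in 32.7% of the table. For Idi1, Lss and Cyp51 these letters of the sterol element are not in the window, from which nothing follows about SREBP2 binding. A match is a description of the sequence and binding was not measured.

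The same medium change was then read in the overexpressor clone. Of the 7 genes, 2 fell (Fdft1 and Sqle), 2 rose (Fdps and Cyp51) and 3 did not pass the threshold. Over all genes, 33% fell and 29.8% rose, so the counts of the 7 genes are near that share. The median log2 fold change of the 7 genes was 0.14, against -0.02 over all genes.

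Sqle stood at 170.3, 174 and 156 CPM in overexpressor myoblasts and 114, 123 and 115 CPM in overexpressor myotubes, a fall of 1.42-fold (log2 fold change -0.51, SE 0.07, adjusted p = 2.3e-06). Fdft1 went from 101, 84.6 and 92.3 CPM to 77.2, 72.6 and 61.6 CPM (log2 fold change -0.39, SE 0.09, adjusted p = 0.000838). The groups did not overlap for either gene, nor for Cyp51 and Fdps. The share of all genes that separated likewise is not given here, so this only describes these libraries. Ctsb, which overlaps Fdft1, fell here as well (log2 fold change -0.61, adjusted p = 9.2e-07).

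Cyp51 rose from 131, 136 and 114 CPM to 145, 155 and 163 CPM, by 1.22-fold (log2 fold change 0.28, SE 0.08, adjusted p = 0.00578). Fdps went from 28.2, 25.6 and 27.8 CPM to 33.4, 33.5 and 29.7 CPM (log2 fold change 0.24, SE 0.10, adjusted p = 0.0375), but this call was lost with its copies added (log2 fold change 0.11, SE 0.10, adjusted p = 0.334) and when any of 4 libraries was left out, replicate B or C of the myoblasts or A or B of the myotubes. Without those libraries its adjusted p was 0.122, 0.0574, 0.093 and 0.1. It was 0.093 with library totals and 0.0527 with only these groups fitted.

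Lss was at 60.4, 57.5 and 54.6 CPM and 51.1, 55.5 and 49.8 CPM (log2 fold change -0.14, SE 0.07, adjusted p = 0.0872), with overlapping groups. It passed only with library totals (adjusted p = 0.0216) and without overexpressor myotube replicate B (adjusted p = 0.0483). Hmgcs1 was at 182, 213 and 154 CPM in myoblasts and 173, 176 and 256 CPM in myotubes (log2 fold change 0.14, SE 0.16, adjusted p = 0.466, 95% interval -0.20 to 0.47). Idi1 was at 2.5, 4.85 and 3.51 CPM and 2.73, 3.00 and 6.25 CPM (log2 fold change 0.14, SE 0.32, adjusted p = 0.715, 95% interval -0.53 to 0.82). Myotube replicate C was the highest library of both genes, and without it their log2 fold changes were -0.03 and -0.29.

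In the clone labelled knockout, 3 of the 7 genes fell (Hmgcs1, Sqle and Lss), Fdps rose and 3 did not pass, against 35.6% of all genes that fell and 29.8% that rose. The median log2 fold change of the 7 genes was -0.49, against -0.08 over all genes. With library totals in place of TMM, 5 of the 7 fell, Idi1 and Cyp51 in addition, and the median over all genes moved from -0.08 to -0.24.

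Sqle went from 126, 138 and 138 CPM in knockout myoblasts to 81.1, 83.9 and 77.9 CPM in knockout myotubes, a fall of 1.66-fold (log2 fold change -0.73, SE 0.07, adjusted p = 3.31e-08). Lss went from 76.9, 88.0 and 88.9 CPM to 58.8, 62.5 and 59.9 CPM (log2 fold change -0.49, SE 0.07, adjusted p = 8.85e-06), and Hmgcs1 from 136, 154 and 145 CPM to 121, 89.5 and 86.1 CPM (log2 fold change -0.56, SE 0.16, adjusted p = 0.00632). The groups did not overlap for any of the 3 genes, a separation that only describes these libraries, as the share of all genes is not given here. Fdps moved the other way, from 24.6, 28.9 and 30.7 CPM to 36.8, 38.3 and 42.4 CPM, a rise of 1.4-fold (log2 fold change 0.48, SE 0.10, adjusted p = 0.000355). It also rose with its copies added (log2 fold change 0.39, SE 0.10, adjusted p = 0.0017).

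Fdft1 was at 99.2, 105 and 114 CPM and 99.6, 111 and 115 CPM, and its log2 fold change of 0.03 (adjusted p = 0.757, 95% interval -0.15 to 0.22) turned to -0.14 with library totals. Cyp51 was at 156, 173 and 162 CPM and 148, 152 and 138 CPM (log2 fold change -0.16, SE 0.08, adjusted p = 0.0948), without overlap though it did not pass. Idi1 was at 3.31, 3.51 and 3.15 CPM and 2.7, 1.69 and 1.51 CPM (log2 fold change -0.75, SE 0.33, adjusted p = 0.059). The groups of Idi1 did not overlap, and it passed with its copies added (log2 fold change -0.82, SE 0.31, adjusted p = 0.0307). It also passed with library totals, with DESeq2's Wald test, with only these groups fitted and without knockout myotube replicate A, at adjusted p-values of 0.0276, 0.0475, 0.0127 and 0.022.

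**Figure D3:**
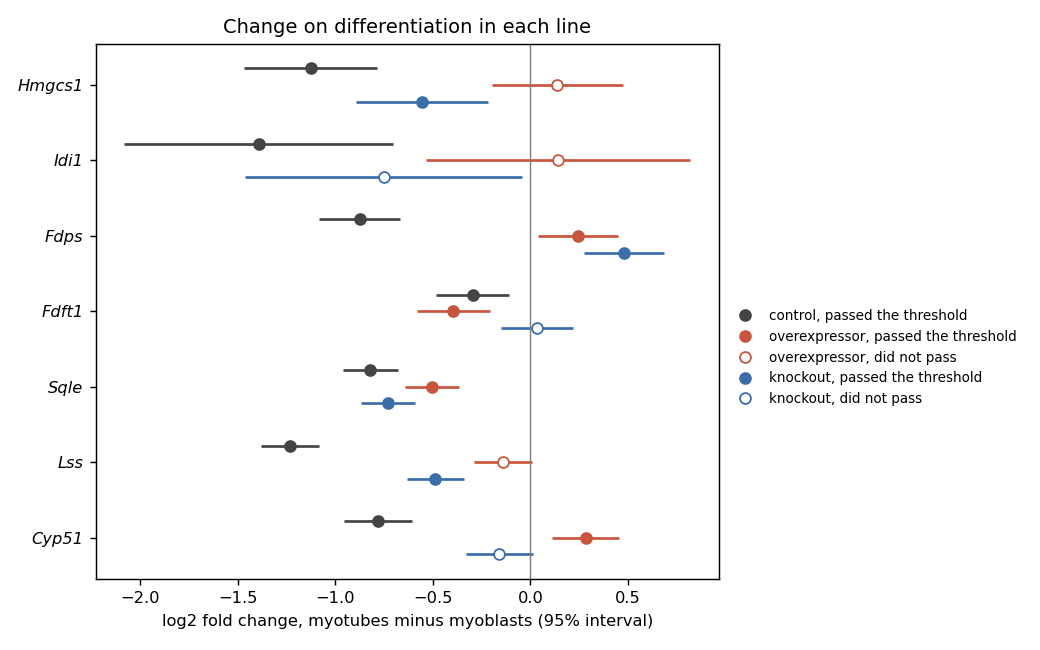
Log2 fold change of myotubes against myoblasts for each gene, with the 95% interval, in control (black), overexpressor (red) and knockout (blue), filled where the adjusted p passed the threshold. All 7 control values lie left of 0, while the overexpressor and knockout values of Fdps lie right of it.

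The difference between responses was tested directly. Between the overexpressor and control it passed for 6 of the 7 genes, all toward a smaller fall or a rise in the overexpressor, where 16.6% of all genes passed in that direction and 22.3% in the other. The log2 differences were 1.54 for Idi1 (adjusted p = 0.013), 1.26 for Hmgcs1 (adjusted p = 0.000286), 1.12 for Fdps (adjusted p = 3.59e-06), 1.09 for Lss (adjusted p = 7.68e-08), 1.06 for Cyp51 (adjusted p = 7.45e-07) and 0.31 for Sqle (adjusted p = 0.012). Fdft1 was the exception, at -0.10 (adjusted p = 0.589, 95% interval -0.36 to 0.17), and its sign turned under DESeq2 size factors (0.02) and under library totals (0.09). The count of 6 was the same in all 12 fits that left out 1 library.

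Between the knockout and control, 5 genes passed in that direction, where 20.2% of all genes did, and 0 in the other, where 29.9% did. Fdps differed by 1.35 (adjusted p = 3.09e-07), Lss by 0.74 (adjusted p = 6.74e-06) and Cyp51 by 0.62 (adjusted p = 0.000249). Hmgcs1 (0.57, adjusted p = 0.0451) and Fdft1 (0.33, adjusted p = 0.0375) were just inside the threshold, and lost their calls in 9 and 8 of the 12 fits that left out 1 library. The count was 3 or 4 in every fit that left out 1 library, and 3 in the fits without control myoblast replicate B or C, control myotube replicate A, or knockout myoblast replicate A or B. Sqle (0.09, 95% interval -0.11 to 0.29) and Idi1 (0.64, 95% interval -0.35 to 1.63) did not pass. Blocking on the replicate letter also left 3.

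Between the clones, 3 genes had a higher response in the overexpressor, where 24.3% of all genes did: Hmgcs1 (0.69, adjusted p = 0.0194), Cyp51 (0.44, adjusted p = 0.00475) and Lss (0.35, adjusted p = 0.00851). Fdft1 had a lower one (-0.43, adjusted p = 0.0102), where 22.4% of all genes did. The call of Hmgcs1 was lost without overexpressor myoblast replicate C (adjusted p = 0.0527) or knockout myotube replicate C (adjusted p = 0.057). Idi1 (0.90, adjusted p = 0.124) passed only with its copies added (1.28, adjusted p = 0.0263) and without knockout myotube replicate A (adjusted p = 0.0496). Sqle (0.22, adjusted p = 0.0592) passed with library totals (adjusted p = 0.00905) and in 4 of the 12 fits that left out 1 library, and Fdps (-0.24, adjusted p = 0.175) in none of the fits.

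The levels of the lines were then compared within each stage. These comparisons share the control libraries with each other and with the responses above, so they are not independent of them. A response difference from control equals the clone's difference in myotubes minus that in myoblasts, so a lower level in myoblasts enters it. In myoblasts all 7 genes were lower in the overexpressor than in control, where 19.7% of all genes were lower and 20.7% higher, and all 7 were lower in the knockout, where 26.6% of all genes were lower and 26.4% higher. No myoblast library of either clone reached the lowest control myoblast library for any of the 7 genes. How many of all genes separated likewise is not given here, so this is not read as particular to the 7 genes. The median log2 fold change of the 7 genes was -0.80 in the overexpressor and -0.75 in the knockout, against 0.02 and 0.02 over all genes.

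Among overexpressor myoblast values Cyp51 differed most (log2 fold change -1.05, SE 0.08, adjusted p = 8.02e-09) and Fdft1 least (log2 fold change -0.67, SE 0.09, adjusted p = 7.44e-06). Lss (-0.90, SE 0.07, adjusted p = 7.55e-09), Hmgcs1 (-0.80, SE 0.16, adjusted p = 0.000719), Fdps (-0.80, SE 0.10, adjusted p = 2.84e-06) and Sqle (-0.68, SE 0.07, adjusted p = 1.36e-07) lay between them. Idi1 (-0.91, SE 0.32, adjusted p = 0.031) lost its call without control myoblast replicate A, overexpressor myoblast replicate A or C, or the filter on low counts, with adjusted p-values of 0.131, 0.131, 0.0826 and 0.0849.

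Among knockout myoblast values Hmgcs1 differed most (log2 fold change -1.13, SE 0.16, adjusted p = 1.91e-05), followed by Idi1 (-1.03, SE 0.32, adjusted p = 0.012) and Sqle (-0.99, SE 0.07, adjusted p = 5.97e-10). Without control myoblast replicate A, the highest library of Idi1, the adjusted p of Idi1 was 0.0599. Fdps (-0.75, SE 0.10, adjusted p = 3.69e-06), Cyp51 (-0.68, SE 0.08, adjusted p = 1.26e-06) and Fdft1 (-0.47, SE 0.09, adjusted p = 0.000202) came next. Lss differed least, at 76.9, 88.0 and 88.9 CPM against 105, 110.1 and 106 CPM (log2 fold change -0.34, SE 0.07, adjusted p = 0.000463). Knockout myoblasts also held myotube markers at 8611 to 10997 summed CPM against 232 to 355 in control myoblasts, and the part of this in the lower levels was not tested. In overexpressor myoblasts that sum was 405 to 670.2.

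In myotubes the differences went both ways. Relative to control myotubes, 3 of the 7 genes were higher in the overexpressor, where 26.2% of all genes were: Hmgcs1 (log2 fold change 0.47, SE 0.16, adjusted p = 0.0197), Fdps (0.32, SE 0.10, adjusted p = 0.00904) and Lss (0.19, SE 0.07, adjusted p = 0.0241). None of these 3 calls remained without control myotube replicate A, where the adjusted p-values were 0.0741, 0.0635 and 0.126, in the same order. Hmgcs1 also lost its call without control myotube replicate B (adjusted p = 0.0626) and Lss without overexpressor myotube replicate B (adjusted p = 0.115). Fdft1 (log2 fold change -0.77, SE 0.09, adjusted p = 7.19e-07) and Sqle (-0.37, SE 0.07, adjusted p = 0.00011) were lower, where 30.9% of all genes were. Cyp51 was at 145, 155 and 163 CPM against 132, 163 and 163 CPM (log2 fold change 0.01, SE 0.08, adjusted p = 0.892, 95% interval -0.16 to 0.19), with overlapping groups. Idi1 was at 2.73, 3.00 and 6.25 CPM against 2.33, 2.08 and 3.34 CPM (log2 fold change 0.62, SE 0.32, adjusted p = 0.114) and passed with DESeq2's Wald test (adjusted p = 0.0235) and without overexpressor myotube replicate A (adjusted p = 0.0457).

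In knockout myotubes Fdps (log2 fold change 0.60, SE 0.10, adjusted p = 3.06e-05) and Lss (0.41, SE 0.07, adjusted p = 5.75e-05) were higher than in control, where 31% of all genes were. Sqle (log2 fold change -0.90, SE 0.07, adjusted p = 1.4e-09) and Hmgcs1 (-0.56, SE 0.16, adjusted p = 0.00546) were lower, where 37% of all genes were. Cyp51 (-0.06, 95% interval -0.23 to 0.11), Fdft1 (-0.14, 95% interval -0.33 to 0.04) and Idi1 (-0.39, 95% interval -1.11 to 0.33) did not pass, and the sign of Cyp51 turned with DESeq2 size factors (0.07).

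By group mean, control myoblasts ranked first for all 7 genes, and below them the order differed from gene to gene. For Hmgcs1 it went on with overexpressor myotubes, overexpressor myoblasts, control myotubes and knockout myoblasts, each overlapping the next, and ended with knockout myotubes. For Sqle overexpressor myoblasts overlapped control myotubes, and knockout myoblasts, overexpressor myotubes and knockout myotubes followed without overlap. For Fdps knockout myotubes came next and stood apart from the remaining groups, each of which overlapped the next, with control myotubes last. For Fdft1 control myotubes, knockout myotubes, knockout myoblasts and overexpressor myoblasts followed, each overlapping the next, and overexpressor myotubes were last and apart. For Lss knockout myoblasts stood apart in second place, knockout myotubes, overexpressor myoblasts and overexpressor myotubes overlapped in a row, and control myotubes were last and apart. For Cyp51 knockout myoblasts, overexpressor myotubes, control myotubes and knockout myotubes followed in a row of overlaps, and overexpressor myoblasts were last. For Idi1 every neighbour in the order overlapped, control myoblasts included.

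Across the 18 libraries, Pearson's r between the log2 CPM of 1 gene and the mean of the other 6, each standardised, ran from 0.483 for Fdft1 to 0.906 for Cyp51. The libraries share groups, and these values describe them without a test. Without the 3 control myoblast libraries, a subset chosen after the levels were seen, r over the remaining 15 was -0.567 for Fdps, -0.427 for Fdft1, 0.021 for Sqle, 0.076 for Hmgcs1, 0.155 for Idi1, 0.205 for Lss and 0.279 for Cyp51. The libraries left out are those of the group that ranked first for all 7 genes. Over the remaining 15 libraries the 7 genes did not share 1 pattern by this measure.

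Of 11044 other genes with a mean of at least 5 CPM, those whose pattern was among the 5 closest to the mean of the 7 over 18 libraries included Fam118a (r = 0.927), Mgat3 (0.925), Pkp2 (0.922) and Glrx (0.922). Without control myoblasts r was 0.249 for Mgat3 and 0.011 for Glrx, and 0.681 and 0.686 for Fam118a and Pkp2.

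The other 14 enzymes of the route were read from a fixed list. In control 12 of the 14 fell and 1 rose, with a median log2 fold change of -0.94. Over all genes, 28.8% fell and 33.9% rose. At the start of the route, Acat2, which makes acetoacetyl-CoA, went from 117, 125 and 129 CPM to 25.3, 31.5 and 24.1 CPM (log2 fold change -2.20, SE 0.09, adjusted p = 1.27e-13). The kinases Mvk (-1.27, adjusted p = 3.01e-09) and Pmvk (-1.07, adjusted p = 6.39e-09) fell too, by more on the log2 scale than the decarboxylase Mvd (-0.43, adjusted p = 0.00186).

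In the later part of the route, Lbr, a sterol reductase that is also a nuclear lamina receptor, changed by -1.35 (adjusted p = 4.54e-09). The exceptions in control were Dhcr7, the last reductase, which rose from 64.3, 68.3 and 68.8 CPM to 86.5, 84.4 and 77.6 CPM (log2 fold change 0.30, SE 0.09, adjusted p = 0.00937), and the isomerase Ebp, at 71.7, 77.0 and 73.9 CPM and 82.3, 82.1 and 73.1 CPM (log2 fold change 0.09, SE 0.08, adjusted p = 0.351).

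In the overexpressor 6 of the 14 fell and 3 rose, and in the knockout 5 fell and 5 rose, with medians of -0.17 and -0.13. Over all genes, 33% fell and 29.8% rose in the overexpressor, and 35.6% and 29.8% in the knockout. The counts within the clones are thus near the share of all genes. Those that rose in the overexpressor were Ebp (log2 fold change 1.55, SE 0.09, adjusted p = 2.19e-11), Dhcr7 (0.82, SE 0.09, adjusted p = 4.97e-07) and Mvd (0.40, SE 0.11, adjusted p = 0.00345). In the knockout they were Dhcr7 (log2 fold change 1.92, SE 0.10, adjusted p = 1.96e-11), Ebp (1.42, SE 0.09, adjusted p = 1.75e-10), Mvd (1.11, SE 0.11, adjusted p = 7.45e-08), Tm7sf2 (0.69, SE 0.14, adjusted p = 0.000356) and Nsdhl (0.36, SE 0.08, adjusted p = 0.00054). Dhcr7 stood at 40.9, 46.9 and 44.9 CPM in knockout myoblasts and 147, 161 and 195 CPM in knockout myotubes, without overlap. The difference in response from control passed toward a smaller fall or larger rise for 13 of the 14 in the overexpressor. In the knockout it did so for 11. Over all genes, 16.6% and 20.2% passed in that direction. In the opposite direction 0 of the 14 passed in both, against 22.3% and 29.9% of all genes. In each clone, 11 of the 14 were lower than in control myoblasts and 0 were higher. The shares of all genes were 19.7% lower and 20.7% higher in the overexpressor, and 26.6% and 26.4% in the knockout. In myotubes 9 were higher and 0 lower in the overexpressor, against 26.2% and 30.9% of all genes. In the knockout 8 were higher and 4 lower, against 31% and 37%.

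**Figure D4:**
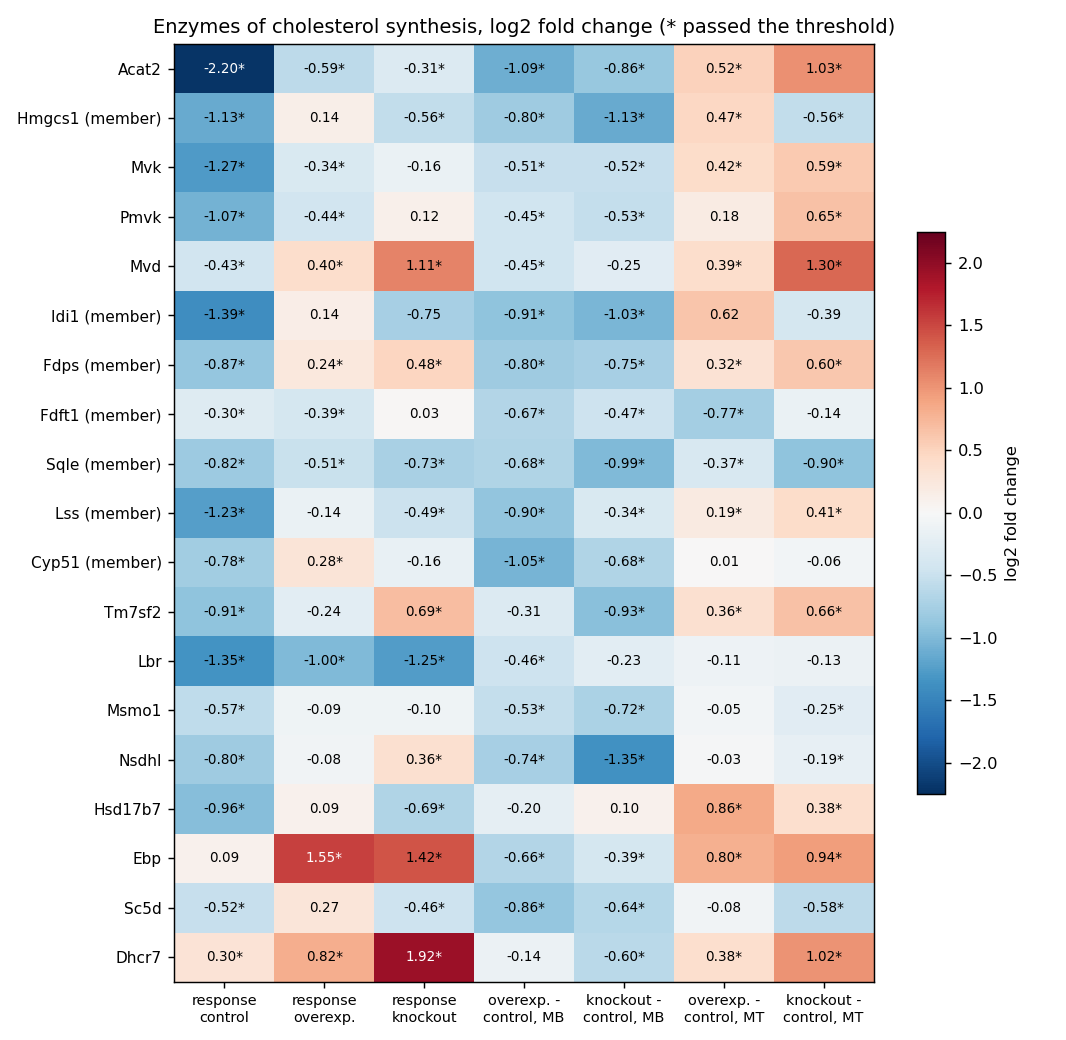
Log2 fold change of enzymes of the route in rough pathway order (rows) in 7 comparisons (columns: myotubes minus myoblasts in each line, then each clone minus control in myoblasts, MB, and in myotubes, MT), with an asterisk where the adjusted p passed the threshold. The control response and both myoblast columns are mostly negative (blue), and Dhcr7, Ebp and Mvd are positive (red) in the responses of both clones.

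Of the 10 genes of SREBP processing, 4 fell and 4 rose in control, and 4 fell and 2 rose in each clone. Of all genes, 28.8% fell and 33.9% rose in control, 33% and 29.8% in the overexpressor, and 35.6% and 29.8% in the knockout, so the counts of this list are near the share of all genes. Srebf2, which encodes SREBP2, fell from 740.4, 776 and 780.4 CPM to 492, 519 and 453 CPM (log2 fold change -0.65, SE 0.08, adjusted p = 7.83e-07). Its escort Scap (-0.62, SE 0.09, adjusted p = 4.55e-06) and the retention gene Insig1 (-0.77, SE 0.07, adjusted p = 1.35e-08) fell with it, as did Srebf1 (-0.36, SE 0.08, adjusted p = 0.000707). Insig1, itself an SREBP target, was at 103, 98.3 and 98.9 CPM in control myoblasts and 56.4, 63.1 and 57.2 CPM in control myotubes. Insig2 (0.26, adjusted p = 0.00267) and the protease genes Mbtps1 (0.15, adjusted p = 0.0392) and Mbtps2 (0.46, adjusted p = 0.0447) were among those that rose.

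Against control myoblasts, Srebf2 was lower in those of the overexpressor (log2 fold change -0.36, SE 0.08, adjusted p = 0.00109) and of the knockout (-0.62, SE 0.08, adjusted p = 2.09e-06). On differentiation it fell in the overexpressor (log2 fold change -0.41, SE 0.08, adjusted p = 0.000146), while in the knockout it was at 484, 509 and 502 CPM and 478, 519 and 544 CPM (log2 fold change 0.04, SE 0.08, adjusted p = 0.635). Insig1 was lower in overexpressor myoblasts (-0.18, SE 0.07, adjusted p = 0.0351) and higher in knockout myoblasts (0.26, SE 0.07, adjusted p = 0.00312), the opposite direction to the 7 enzymes in the knockout.

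Among the 6 genes of cholesterol uptake and transport, 4 fell and 1 rose in control, and 5 fell and 0 rose in each clone. Over all genes, 28.8% fell and 33.9% rose in control, 33% and 29.8% in the overexpressor, and 35.6% and 29.8% in the knockout. Stard4, a cytosolic sterol carrier, went from 77.7, 72.0 and 77.0 CPM to 15.9, 19.0 and 20.04 CPM (log2 fold change -2.05, SE 0.16, adjusted p = 4.47e-09), and Scarb1, an HDL receptor, fell as well (-0.90, SE 0.09, adjusted p = 1.28e-07). Npc1, which exports cholesterol from lysosomes, rose from 61.6, 65.1 and 64.5 CPM to 124, 113 and 105 CPM (log2 fold change 0.84, SE 0.06, adjusted p = 1.53e-09). Stard4 also fell in the overexpressor (log2 fold change -0.90, SE 0.15, adjusted p = 6.07e-05) and in the knockout (-1.45, SE 0.16, adjusted p = 4.46e-07), by less than in control (difference 1.15, adjusted p = 0.000367, and 0.59, adjusted p = 0.0312). Npc1 fell in both clones (-0.44, adjusted p = 6.62e-06, and -0.23, adjusted p = 0.00432).

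**Figure D5:**
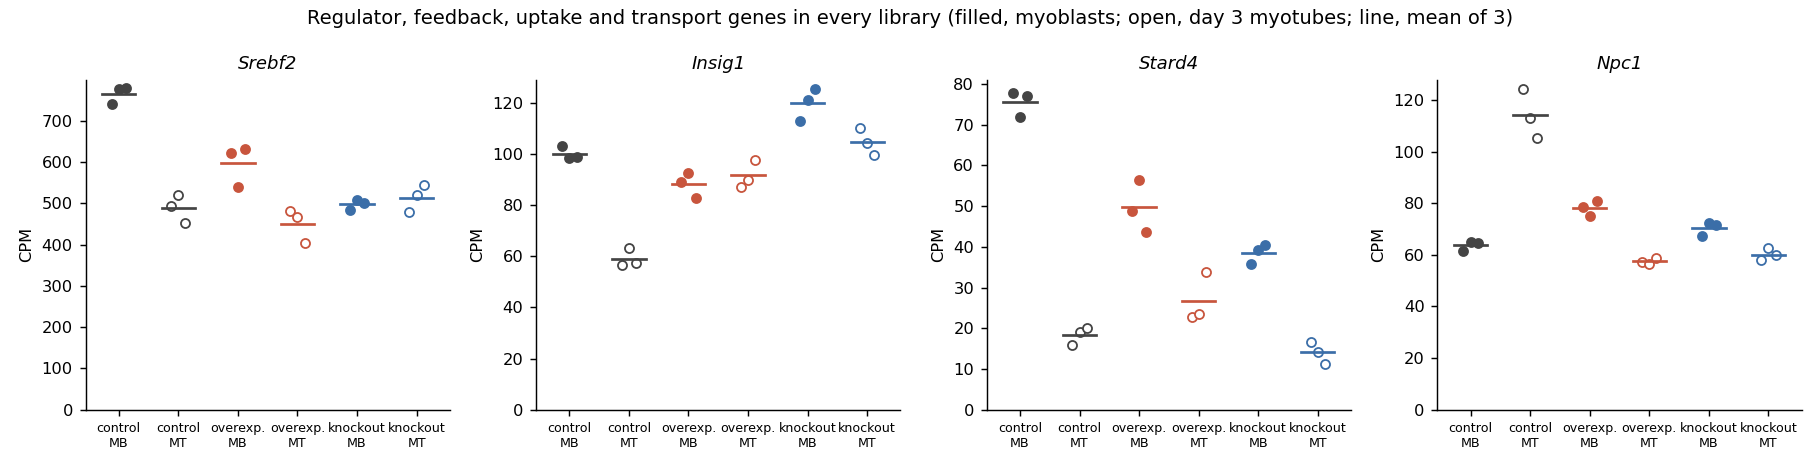
CPM (linear axes from 0) of Srebf2, Insig1, Stard4 and Npc1 in 3 libraries per group, with myoblasts filled, day 3 myotubes open and the mean as a line. Srebf2 and Stard4 are highest in control myoblasts, Insig1 is highest in knockout myoblasts, and Npc1 is highest in control myotubes.

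Fatty acid synthesis and desaturation, which SREBP1 is known to drive, was read from 11 genes. In control 9 fell and 0 rose, in the overexpressor 9 fell and 1 rose, and in the knockout 7 fell and 2 rose, with medians of -0.53, -1.01 and -0.42. Over all genes, 28.8% fell and 33.9% rose in control, 33% and 29.8% in the overexpressor, and 35.6% and 29.8% in the knockout. Fasn, fatty acid synthase, changed by -1.49 in the control line (adjusted p = 1.66e-11), -1.16 in overexpressor cells (adjusted p = 4.9e-10) and -0.28 in knockout cells (adjusted p = 0.00581). In myoblasts 9 of the 11 were lower in the overexpressor and 11 in the knockout than in control. The shares of all genes that were lower were 19.7% and 26.6%.

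Genes of proliferation moved beside these results. All 8 (Mki67, Top2a, Ccnb1, Cdk1, Mcm2, Mcm5, Pcna and Ccna2) fell on differentiation in each line, with medians of -3.51, -2.51 and -2.12 in control, overexpressor and knockout. Over all genes, 28.8%, 33% and 35.6% fell, in the same order. Their summed level was 1655 to 1769 CPM in control myoblasts and 148 to 186 in control myotubes, 1442 to 1772 and 270.4 to 328 in the overexpressor, and 1286 to 1384 and 309 to 355 in the knockout. In overexpressor myoblasts, where all 7 sterol genes were lower than in control, 1 of the 8 was lower and 0 were higher. The shares of all genes there were 19.7% lower and 20.7% higher, so the 1 lower gene is near that share. In knockout myoblasts 4 of the 8 were lower and 0 were higher, where 26.6% of all genes were lower and 26.4% higher. The part of proliferation in the levels of the 7 genes was not tested.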

How the data were processed

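The deposited table held the authors' raw counts for each Ensembl gene ID in 18 polyA RNA libraries. Per the submitters' processing notes, the tools included STAR 2.7.9a, featureCounts, Subread 2.0.3, FastQC 0.11.7 and DESeq2 1.32.0, with the build mm10. The annotation release, the use of strand and the treatment of reads with several matches were not given in the sources used here. A table of transformed values of the same libraries was not used here. Of 55450 IDs, 55190 matched GENCODE M21 (GRCm38, the assembly of mm10), which gave symbols, positions and exon lengths.

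Counts were fitted with edgeR 4.0.16 in R 4.3.3: TMM factors, filterByExpr by group, 1 coefficient for each of 6 groups, robust quasi-likelihood tests and 12 residual degrees of freedom. Benjamini-Hochberg adjustment ran over 17912 genes. The script was tested on simulated data. Alternatives were DESeq2 1.42.0 size factors and its Wald test, library totals, no filter, the replicate letter as a block, only the groups compared, each library left out and, added later, pseudogene copies summed. The genes and lists were chosen with earlier results of these data known. Named genes were the 7 genes, all genes of the lists, Meg3 and the 5 genes with the most similar pattern (log2 of CPM plus 0.5), and Ctsb, Akap9 and the pseudogenes were added after their counts were seen. Some genes that count in the lists are not reported here by name. Replicate pairs differed beyond sampling noise, with chi-square per degree of freedom from 4.72 to 117.8. The highest were overexpressor myotube replicate C against A (117.8) and against B (112.5), where A against B gave 22.8.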

Additional observations from a re-analysis of the deposited data

Results flagged for a closer look

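The response to differentiation medium differed between lines by a direct test of the difference (edgeR's quasi-likelihood test, adjusted p under 0.05) for several of the 7 genes, which is what set these results apart. For the overexpressor minus control the log2 differences that passed were 1.26 for Hmgcs1, 1.54 for Idi1, 1.12 for Fdps, 0.31 for Sqle, 1.09 for Lss and 1.06 for Cyp51. For the knockout minus control they were 0.57 for Hmgcs1, 1.35 for Fdps, 0.33 for Fdft1, 0.74 for Lss and 0.62 for Cyp51. For the overexpressor minus the knockout they were 0.69 for Hmgcs1, -0.43 for Fdft1, 0.35 for Lss and 0.44 for Cyp51. The knockout minus control differences of Hmgcs1 and Fdft1 lost their calls in 9 and 8 of the 12 fits that left out 1 library and with the replicate block (adjusted p = 0.0628 and 0.056), and that of Hmgcs1 also without the filter on low counts (adjusted p = 0.141). The overexpressor minus knockout difference of Hmgcs1 lost its call in 2 of 12 such fits and without the filter (adjusted p = 0.0503). The first 2 sets share the control libraries. Each difference between the clones is the first difference of that gene minus the second, so the sets are not independent of each other. Each difference from control is also the clone's difference from control in myotubes minus that in myoblasts. In myoblasts all 7 genes were lower than control in each clone. In myotubes 3 were higher and 2 lower in the overexpressor, and 2 were higher and 2 lower in the knockout.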

How the results depend on the processing

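All 7 genes fell in control, and 6 had a higher response in the overexpressor than in control, under each of the alternatives run for these comparisons. In the overexpressor response the number of the 7 genes that rose was 1 rather than 2 with library totals, with only the groups compared and with the copies summed. In the knockout response the number that fell was 5 rather than 3 with library totals. In the difference between the knockout and control responses the number higher was 3 rather than 5 with the replicate block, which lost Hmgcs1 (adjusted p = 0.0628) and Fdft1 (adjusted p = 0.056) and changed no other call of the 7 genes. Deviations of same-letter libraries correlated from -0.665 to 0.523, over 0.1 in 13 of 45 pairs. These values were not set against pairs of different letters, so they do not decide whether the letters pair libraries.

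Leaving out 1 library gave 6 to 7 genes lower in each clone's myoblasts, 3 to 4 higher for the knockout minus control response and 2 to 4 for the overexpressor minus knockout response. It gave 0 to 4 higher in overexpressor myotubes, 1 to 2 higher and 2 to 3 lower in the overexpressor response, and 3 to 4 lower in the knockout response. Calls lost in these fits were those of Idi1 in myoblasts (1 of 6 fits in the knockout and 3 of 6 in the overexpressor), Fdps in the overexpressor response (4 of 6), Hmgcs1, Lss and Fdps in overexpressor myotubes (2, 2 and 1 of 6), and Hmgcs1 and Fdft1 in the knockout minus control response (9 and 8 of 12) and Hmgcs1 in the overexpressor minus knockout response (2 of 12). Signs turned in some fits for values that had not passed. The values 0.0942, 0.0752, 0.2598 and 0.4155 below kept the sign and are the highest of the fits that left out 1 library. Fdft1 in the overexpressor minus control response was 0.0156 with DESeq2 size factors and with DESeq2's Wald test, 0.0894 with library totals and 0.1029 without overexpressor myotube replicate C. Fdft1 in the knockout response was -0.137 with library totals, and -0.0135 to -0.0057 without knockout myoblast replicate A or myotube replicate C, and 0.0942 without myotube replicate A. Cyp51 in knockout against control myotubes was 0.0690 with DESeq2 size factors and 0.0691 with the Wald test, and in overexpressor against control myotubes -0.0771 without control myotube replicate A and 0.0752 without overexpressor myotube replicate C. In the overexpressor response Hmgcs1 ranged from -0.0258 without myotube replicate C to 0.2598 without myoblast replicate B. Idi1 ranged from -0.2851 to 0.4155 in the same fits and was -0.066 without myoblast replicate A. The cause was not tested. Without the filter, the adjusted p of Hmgcs1 was 0.141 and 0.0503 in the knockout minus control and overexpressor minus knockout responses and 0.0567 in overexpressor myotubes. Idi1, at 72 to 460 counts per library, had the widest intervals.

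Scaling by library totals shifted the median over all genes: for control from 0.07 to -0.17, where 4336 genes then rose and 7091 fell rather than 6074 and 5166, and for the knockout response to -0.24, where 4044 rose and 7839 fell rather than 5330 and 6377. For the overexpressor minus control difference it went from -0.05 to 0.14, with 4312 higher and 2755 lower rather than 2981 and 3996. DESeq2 size factors moved it to 0.06, with 3617 higher and 3088 lower. The median of the 7 genes in control was -1.12 with library totals, and in the overexpressor minus control difference it was 1.09 with TMM, 1.20 with size factors and 1.28 with library totals.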

Other observations

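Of 10 genes of the sterol-sensing LXR receptors, of efflux and of storage, 6 rose and 1 fell in control. In the overexpressor 3 rose and 3 fell, and in the knockout 3 rose and 0 fell. Over all genes, 33.9% rose and 28.8% fell in control, 29.8% and 33% in the overexpressor, and 29.8% and 35.6% in the knockout. The numbers that rose in the clones are thus near the share of all genes. Abca1, the exporter that loads HDL, was at 0.0749, 0.231 and 0.0891 CPM in control myoblasts and 1.12, 0.687 and 1.23 CPM in control myotubes (log2 fold change 2.92, SE 0.44, adjusted p = 1.33e-05). Apoe, which carries lipid in lipoproteins, rose from 0.974, 0.923 and 1.16 CPM to 7.03, 6.39 and 5.52 CPM in control (log2 fold change 2.63, SE 0.18, adjusted p = 3.77e-10). Ch25h, the cholesterol 25-hydroxylase whose product restrains SREBP2, rose from 2.04, 2.11 and 1.49 CPM to 17.5, 20.3 and 17.2 CPM in control (log2 fold change 3.28, SE 0.17, adjusted p = 9.93e-12). In overexpressor cells Ch25h was at 2.99, 2.87 and 2.63 CPM and then 1.5, 2.35 and 1.54 CPM, and in knockout cells at 2.43, 2.28 and 2.19 CPM and 2.78, 2.23 and 2.15 CPM. Its response differed from control in the overexpressor (-3.93, adjusted p = 4.9e-10) and in the knockout (-3.22, adjusted p = 5.66e-09). Abcg1, another exporter, had 144 to 186 counts per library in control myoblasts and 644 to 980 in control myotubes. It had 0 counts in all 9 libraries of overexpressor myoblasts and of both knockout stages, and 7 to 20 in overexpressor myotubes.

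Of 10 genes of the nonsterol branches that draw on the same isoprenoids, 3 rose, 1 fell and 6 did not pass in control. In the overexpressor 4 rose and 1 fell, and in the knockout 4 rose and 4 fell. Of all genes 33.9% rose and 28.8% fell in control, 29.8% and 33% in the overexpressor, and 29.8% and 35.6% in the knockout, so the numbers that rose are near the share of all genes. Ggps1, which makes geranylgeranyl diphosphate, rose in control (log2 fold change 0.59, SE 0.19, adjusted p = 0.0115) and fell in the knockout (-0.84, SE 0.19, adjusted p = 0.00112), and the difference in response was -1.43 (adjusted p = 0.000354). Pggt1b, a subunit of a prenyltransferase that uses it, fell in the knockout (log2 fold change -1.10, SE 0.34, adjusted p = 0.0101) and did not pass in control (0.69, SE 0.33, adjusted p = 0.0779).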
